A study of Mus musculus with 7 samples.

Results

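The genes described here are 10 members of the liver X receptor (LXR) and cholesterol efflux pathway, out of 23420 genes in the count table: Nr1h2, Nr1h3, Abcg1, Abca1, Apoe, Apoc1, Mylip, Lpcat3, Npc1 and Npc2. They were chosen by gene symbol around Abcg1 because its level is low in microglia of conditional Srgap2 knockout (cKO) mice. The difference of Abcg1 between the genotypes is therefore given as a description and not tested. Microglia, the resident macrophages of the brain, were sorted from the cortex at postnatal day 30 as CD11b-positive, CD45-low, CX3CR1-positive cells, and their poly(A) RNA was sequenced. The 4 cKO libraries came from MG-Srgap2f/f mice, which carry floxed Srgap2 alleles and Tmem119creErt2, a tamoxifen-inducible recombinase driven by a microglial gene. The 3 WT libraries came from WT mice, which are Srgap2f/f without the recombinase. Mice of both groups received 2 doses of tamoxifen (75 ug per g of body weight) at postnatal days 8 and 10. The recombinase is carried by the cKO mice alone, so its presence and the deletion cannot be told apart. Each library is labelled with its own mouse number. Whether fewer cells of a type or less RNA per cell lowers a level cannot be told apart in bulk RNA.

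Cells sense surplus cholesterol through oxysterols and desmosterol, which bind the nuclear receptors LXR alpha (Nr1h3) and LXR beta (Nr1h2). With a retinoid X receptor as partner, these receptors bind DNA at direct repeats and raise transcription of genes that export cholesterol and remodel membrane lipids. In macrophages, the export arm loads cholesterol and phospholipid onto apolipoprotein particles through the transporters Abca1 and Abcg1. In the brain, where plasma lipoproteins do not enter, apolipoprotein E made by glia carries cholesterol between cells. The opposite arm, governed by SREBP-2 (Srebf2), raises sterol synthesis and uptake when cholesterol is scarce.

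The libraries held 27025270 to 35213711 counts in cKO and 27016173 to 35707304 in WT. Levels are CPM, counts scaled to library size with TMM factors, given as mean ± SD (n = 4 cKO, n = 3 WT) or per library, in the order of replicates 1 to 4 for cKO and 1 to 3 for WT. Fold changes are log2 values of cKO over WT, and adjusted p-values are those of the edgeR quasi-likelihood test over all genes tested, with a threshold of 0.05. Srgap2, the targeted gene, averaged 272 ± 55.0 CPM in cKO libraries and 788 ± 165 CPM in WT libraries, without overlap. The cKO mean was 34.5% of the WT level, so part of the transcript remained. The 10 microglial markers summed to 51320 to 59849 CPM in cKO mice against 60610 to 63523 CPM in WT mice, and of these Tmem119, the gene for which the recombinase line is named, passed the test, with 3707 ± 716 CPM (cKO) and 6557 ± 571 CPM (WT). Marker sums of other cells were far lower. Border-associated macrophage markers (8) summed to 70.1 to 135 CPM in cKO mice against 75.2 to 115 CPM in WT mice, and astrocyte markers (10) to 89.0 to 142 CPM (cKO) and 135 to 141 CPM (WT). The oligodendrocyte lineage summed to 224 to 331 CPM in cKO mice against 226 to 256 CPM in WT mice, endothelial and mural cells to 62.5 to 81.4 CPM (cKO) and 78.2 to 85.8 CPM (WT), monocytes and neutrophils to 19.2 to 30.9 CPM (cKO) and 12.9 to 20.9 CPM (WT), and neurons to 1.59 to 3.86 CPM (cKO) and 1.68 to 2.27 CPM (WT). Of these 6 lists of other cells no gene passed the test, which 0.359% of all genes tested did, so this does not show equal levels. An unadjusted p under 0.05 was found for Lyve1, Plac8 and Cnp, higher in cKO, and for Slc1a3, lower in cKO. Over all genes tested, 16.5% had one. Cldn5 and Rgs5 had no count in any library. Esr1, the estrogen receptor gene whose ligand-binding domain the creErt2 fusion contains, averaged 181 ± 23.7 CPM in cKO libraries and 3.99 ± 0.45 CPM in WT libraries, and Cx3cr1, whose protein was a sorting marker, 6521 ± 326 CPM (cKO) and 7603 ± 547 CPM (WT). The labels give no sex. Xist, the RNA of the inactive X, stood at 69.4 CPM in cKO replicate 2, at 144 CPM in cKO replicate 4, at 243 CPM in WT replicate 2 and at 127 CPM in WT replicate 3. The other 3 libraries had at most 0.66 CPM.

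LXR binding sites resemble the repeat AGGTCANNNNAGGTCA, a pair of half-sites with a spacer of 4 bases known as DR4. The 250 bases before each RefSeq gene start (build GRCm38.p6) were searched on both strands for this repeat with at most 3 mismatches in its 12 fixed bases, which on the reverse strand reads TGACCTNNNNTGACCT. Of the 10 members 7 were matched in that sequence table, and of these 1, Abca1, held such an element. Abcg1, Apoc1 and Npc1 had no entry there, so whether they hold such an element was not examined. Among 18 other LXR target genes 12 were matched and 4 held one: Fasn, Srebf1, Arl4c and Cd38. The share over all 27025 genes searched was 20.9%. All 5 elements are shown, so that Abca1 can be compared letter by letter with other targets of the receptors, with the half-sites in capitals and the spacer in lower case, read on the strand of the gene.
Abca1: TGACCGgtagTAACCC
Fasn: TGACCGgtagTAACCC
Srebf1: TGACCGccagTAACCC
Arl4c: AGACCCcgccTGACCC
Cd38: TCACCTccgtGGAACT
The elements of Abca1 and Fasn were the same in all 16 bases, and of the genes searched these 2 held this exact string on the gene's strand. The Srebf1 element differed from them at 2 positions, both in the spacer, the Arl4c element differed at 7 and the Cd38 element at 10. The Abca1 element lies 67 to 52 bases before the start, within chr4:53159896-53160145 (minus strand, GRCm38.p6), which reads as follows.
Abca1 upstream: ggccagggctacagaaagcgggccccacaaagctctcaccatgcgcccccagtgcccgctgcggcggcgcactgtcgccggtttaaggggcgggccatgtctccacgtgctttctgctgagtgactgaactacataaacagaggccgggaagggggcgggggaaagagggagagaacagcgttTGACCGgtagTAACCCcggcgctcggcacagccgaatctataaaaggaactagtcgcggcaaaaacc
A match describes these letters and does not show binding.

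In cKO microglia the transcript of the exporter Abcg1 stood at 52.0% of its WT level. None of the 9 other members passed the test with edgeR, which 0.359% of all genes tested did. Every cKO library had less Mylip than any WT library, a pattern that 7.2% of all genes tested showed. For Abca1, 3 of 4 cKO libraries had less than any WT library. Both genes had smaller fold changes than Abcg1. The receptor genes, the apolipoprotein genes and the lysosomal cholesterol genes overlapped between the genotypes.

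The exporter Abcg1, which moves cholesterol to high-density lipoprotein particles, was at 141, 154, 137 and 145 CPM in the cKO libraries, against 282, 264 and 285 CPM in the WT libraries. The libraries of each group lay close together and the groups did not overlap: the highest cKO library had 58.4% of the level of the lowest WT library. The mean was 144 ± 7.47 CPM in cKO mice against 277 ± 11.5 CPM in WT mice, 52.0% of the WT level (log2 fold change −0.94, SE 0.10). Of 8576 genes whose mean log2 CPM reached 3, it ranked 6 from the lowest fold change, and 152 among all 11991 genes tested. As a ratio that needs no scaling between libraries, counts of Abcg1 per count of Npc1 were 0.32, 0.34, 0.32 and 0.31 in the cKO libraries and 0.56, 0.60 and 0.59 in the WT libraries. The level was also alike in libraries with and without Xist: 149 CPM in cKO mice against 275 CPM in WT mice with Xist present (2 libraries each), and 139 CPM in cKO (2 libraries) and 282 CPM in WT (1 library) without it. Over 19 alternative ways of processing, the log2 fold change of Abcg1 lay between −0.99 and −0.89. The rank, the ratio and this range rest on the same counts that chose Abcg1, so they describe its difference and add no support.

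The second exporter, Abca1, which hands cholesterol and phospholipid to lipid-poor apolipoproteins, was at 369, 220, 276 and 230 CPM in the cKO libraries and at 419, 405 and 318 CPM in the WT libraries. The groups overlapped through cKO replicate 1, which stood above WT replicate 3, while the other cKO libraries stood below all WT libraries. Abca1 averaged 274 ± 68.3 CPM in cKO mice against 381 ± 55.0 CPM in WT mice, and the difference missed the threshold (log2 fold change −0.48, SE 0.18, adjusted p = 0.205; edgeR quasi-likelihood test). Without cKO replicate 1 the log2 fold change was −0.67 (adjusted p = 0.0399), and over the 19 alternatives the adjusted p ranged from 0.00681 to 0.501. Abcg1 varied less than Abca1 among the libraries of a group, with SDs of 0.07 and 0.06 log2 units in cKO and WT, against 0.34 and 0.22 for Abca1. Abcg1 was chosen for its difference in these same libraries, so its small spread is a description only.

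**Figure D1:**
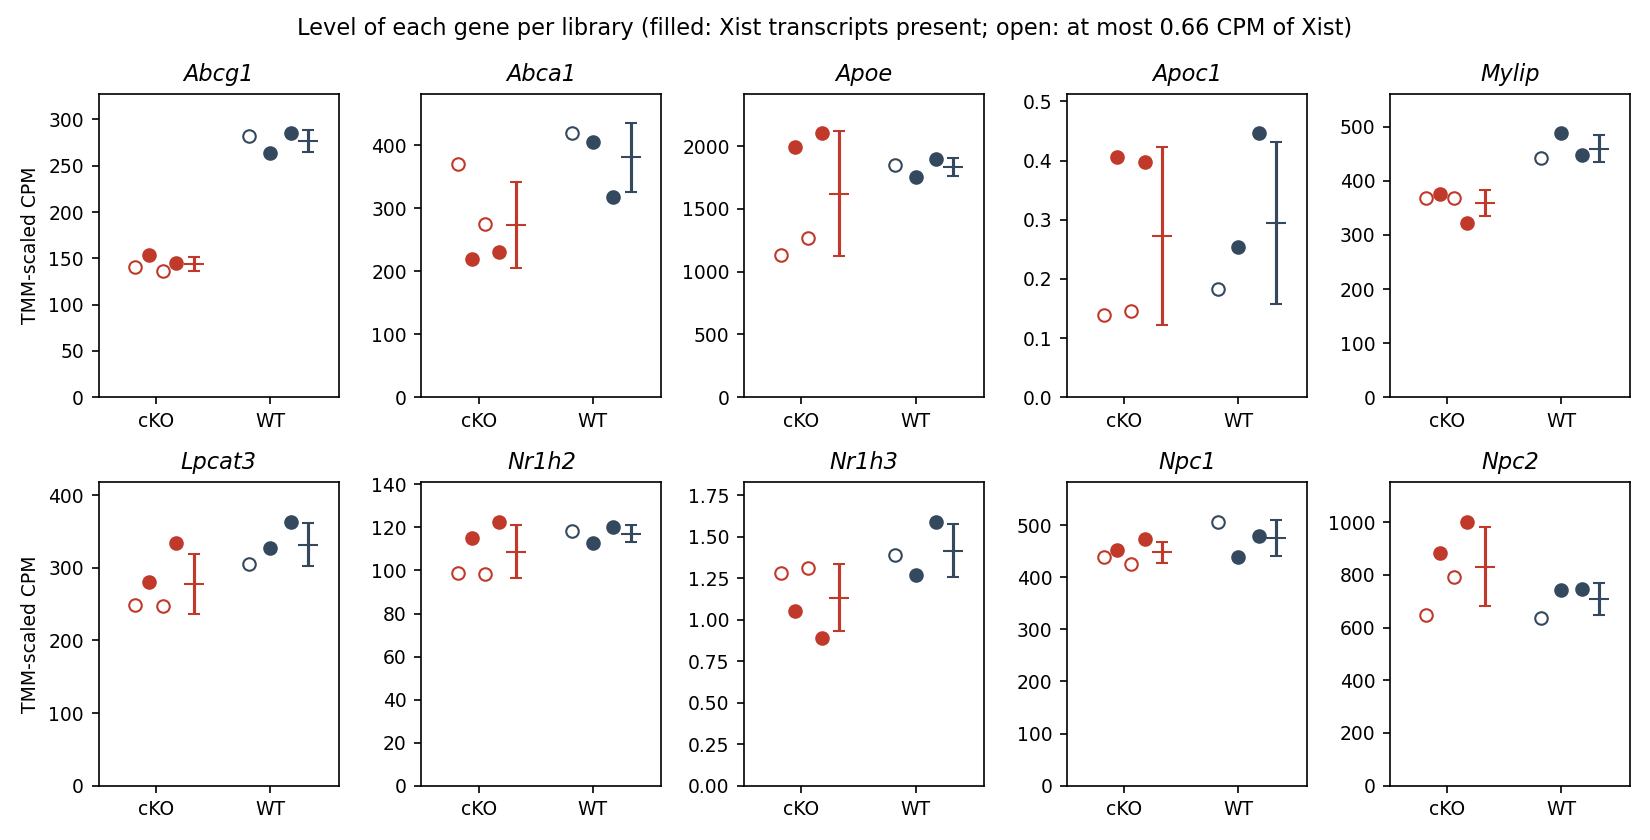
TMM-scaled CPM of the 10 genes in each library, cKO left and WT right, with the mean and SD beside the points; filled points are libraries with Xist. Abcg1 and Mylip do not overlap between the groups, and Apoe forms a low and a high pair within cKO.

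Apoe, the main carrier apolipoprotein of brain cholesterol, was the most abundant member, at 1131, 1990, 1266 and 2104 CPM in the cKO libraries and 1854, 1758 and 1895 CPM in the WT libraries. The cKO libraries fell on both sides of the WT libraries: replicates 1 and 3 lay below all of them and replicates 2 and 4 above. The means were 1623 ± 495 CPM in cKO mice against 1835 ± 70.3 CPM in WT mice (log2 fold change −0.18, SE 0.20, adjusted p = 0.715). Several measures moved with this split. Xist was present in cKO replicates 2 and 4 and not in 1 and 3. The rank correlation across genes between a gene's deviation from its mean and its GC content was −0.52 and −0.42 in cKO replicates 1 and 3, and 0.17 and 0.44 in cKO replicates 2 and 4. In WT replicates 1 to 3 it was −0.01, 0.07 and 0.24. The Apoe transcript is 59.5% GC. Their part in the Apoe levels was not tested. Of the astrocyte markers, Slc1a3 made up most of the sum, at 74.7 to 130 CPM in cKO mice against 122 to 127 CPM in WT mice. The other 9 were at most 6.90 CPM, and Sox9 and Aqp4 were at or near 0. The markers did not all follow 1 order over the cKO libraries, and the part of astrocyte RNA in the Apoe levels was not tested. Apoc1, a smaller apolipoprotein encoded beside Apoe, was nearly absent, with 4, 12, 4 and 13 counts in the cKO libraries and 5, 8 and 16 counts in the WT libraries (adjusted p = 0.941). A difference in Apoc1 was not detectable at this depth.

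Mylip, an LXR target that encodes a ubiquitin ligase that limits lipoprotein uptake, was at 369, 376, 369 and 323 CPM in the cKO libraries and at 442, 488 and 448 CPM in the WT libraries. Every cKO library was below every WT library. The mean was 359 ± 24.5 CPM in cKO mice against 460 ± 25.1 CPM in WT mice, 78.2% of the WT level, and the difference missed the threshold (log2 fold change −0.36, SE 0.10, adjusted p = 0.139; range over the alternatives 0.0295 to 0.419). Lpcat3, an LXR target that puts polyunsaturated fatty acids into membrane phospholipids, was at 248, 280, 247 and 334 CPM in the cKO libraries and 305, 328 and 364 CPM in the WT libraries. The groups overlapped through cKO replicate 4 (log2 fold change −0.26, SE 0.13, adjusted p = 0.337). The RefSeq annotation (GRCm38.p6) places Lpcat3 over part of Emg1, Nr1h3 over part of Acp2 and Npc1 over part of Rmc1, and the sources used here do not give the counting rule or strand setting. How reads were divided within these pairs is uncertain.

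Of the receptor genes, Nr1h2, which encodes LXR beta, had the higher level per kilobase. Nr1h2 was at 98.6, 115, 98.2 and 123 CPM in the cKO libraries and 119, 113 and 120 CPM in the WT libraries, with overlapping groups (log2 fold change −0.11, SE 0.11, adjusted p = 0.690). Nr1h3, which encodes LXR alpha, had 0.89 to 1.31 CPM in cKO mice against 1.27 to 1.59 CPM in WT mice, from 29 to 57 counts per library (log2 fold change −0.33, SE 0.28, adjusted p = 0.613). Per kilobase of transcript the level of Nr1h2 was 54.4 ± 6.13 CPM in cKO mice against 58.6 ± 1.95 CPM in WT mice, and that of Nr1h3 was 0.58 ± 0.10 CPM in cKO mice against 0.72 ± 0.08 CPM in WT mice.

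Npc1 and Npc2 pass cholesterol out of the lysosome, Npc2 by carrying it to the membrane protein Npc1. Npc1 was at 426 to 472 CPM in cKO mice against 438 to 507 CPM in WT mice (log2 fold change −0.09, SE 0.10, adjusted p = 0.728). Npc2 was the one member with a fold change above 0, at 647, 882, 791 and 1002 CPM in the cKO libraries and 638, 743 and 747 CPM in the WT libraries. The cKO libraries 2, 3 and 4 were above all WT libraries and cKO replicate 1 was among them (log2 fold change 0.23, SE 0.15, adjusted p = 0.471).

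All 10 members passed the filter on low counts. Abcg1 is left out of the counts of members passing, since its low level in cKO chose them. Of the 9 others none passed with edgeR at an adjusted p under 0.05, against 0.359% of the 11991 genes tested, 0.0417% lower and 0.317% higher. Of these 9, 2 had an unadjusted p under 0.05 (Abca1 and Mylip, both lower), 1 passed with DESeq2 (Mylip) and 0 with limma-voom. Over all genes tested 16.5% had an unadjusted p under 0.05. With DESeq2 374 of all genes passed higher and 164 lower, and with limma-voom 41 higher and 6 lower. The groups did not overlap for 1 of these 9, Mylip, which was lower in cKO, and 0 were higher without overlap. Over all genes 7.2% were lower and 8.86% higher without overlap. Fold changes were below 0 for 8 of the 9 and for 51.9% of all genes. The median was −0.22 over the members, −0.18 over the 9 others and −0.01 over all genes tested. Leaving out cKO replicate 3 made the members' median −0.14, and leaving out WT replicate 1 made it −0.33.

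**Figure D2:**
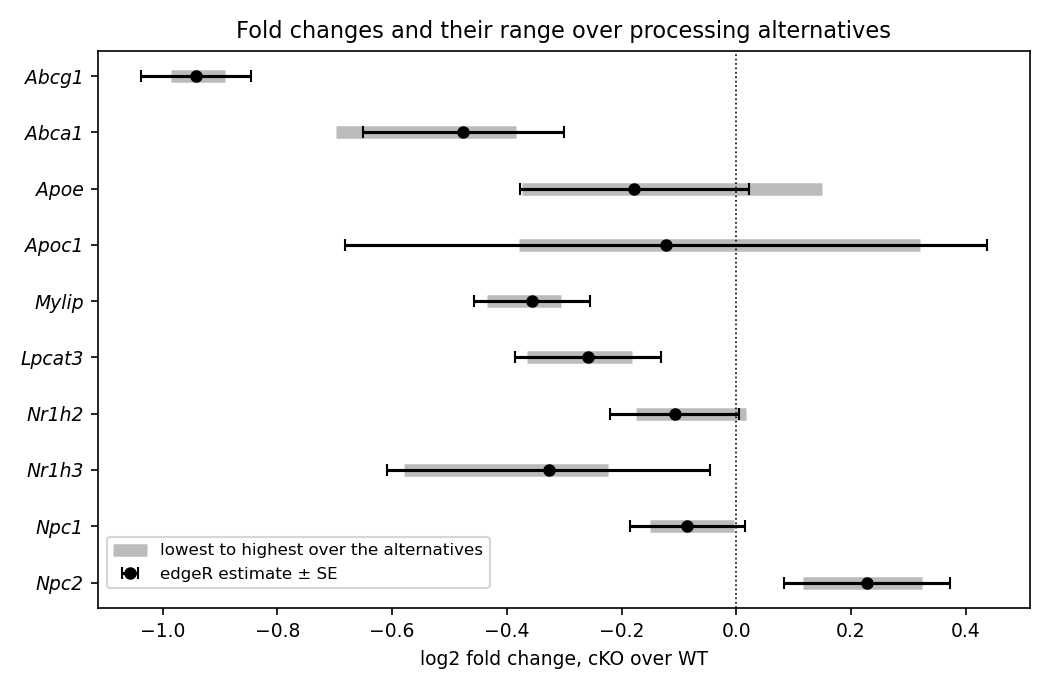
Log2 fold change of each gene, cKO over WT, with its SE (points and bars), over the lowest and highest value among the alternatives (grey; 19 for 9 genes and 16 for Apoc1). Abcg1 lies between −0.99 and −0.89 under all alternatives run, and the range of Apoe runs from −0.37 to 0.15.

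Per kilobase of the longest coding transcript, Apoe was highest, at 1153 ± 352 CPM in cKO mice against 1303 ± 49.9 CPM in WT mice, followed by Npc2 at 252 ± 45.5 CPM (cKO) and 215 ± 18.7 CPM (WT). Lpcat3 and Mylip came next, at 122 ± 17.9 and 117 ± 8.0 CPM in cKO and 146 ± 13 and 150 ± 8.2 CPM in WT, and their ranges overlapped. Npc1 and Nr1h2 stood lower, with ranges over all libraries of 81.5 to 97.0 and 49.1 to 61.4 CPM per kilobase. Abcg1 was at 24.7 ± 1.28 CPM per kilobase in cKO and 47.5 ± 1.98 in WT, and Abca1 at 26.7 ± 6.65 in cKO and 37.1 ± 5.36 in WT. The exporters overlapped in cKO, where Abcg1 ran from 23.4 to 26.4 and Abca1 from 21.4 to 36 CPM per kilobase. They did not overlap in WT, where Abcg1 ran from 45.2 to 48.9 and Abca1 from 31.0 to 40.8. Nr1h3 and Apoc1 were last, both under 1 CPM per kilobase. With the mean length of the coding transcripts Abcg1 moved from rank 7 to rank 5 and Npc1 from 5 to 7, while Lpcat3 and Mylip changed places. The longest coding transcript of Abcg1 has 5832 bases and the mean over its coding transcripts is 2190 bases. With the mean lengths, Abcg1 averaged 91.8 CPM per kilobase over all libraries and Abca1 31.1. The overlap of the exporters in cKO therefore holds for the longest transcripts only.

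Within a group, the members did not all move in the same direction. In cKO replicates 1 and 3, Apoe, Apoc1, Nr1h2, Lpcat3, Npc1, Npc2 and Abcg1 were all below their group mean. They were above it in replicates 2 and 4, though Abcg1 and Npc1 deviated by at most 0.10 log2 units. Nr1h3 and Abca1 did the reverse, and Mylip was below its mean in replicate 4 only. Deviations of Apoe from the group mean were −0.47, 0.35, −0.31 and 0.43 log2 units in the cKO libraries and at most 0.06 in size in WT. Those of Abca1 were 0.46, −0.29, 0.04 and −0.22 log2 units in the same cKO libraries. The transcripts of Apoe and Nr1h2 are 59.5% and 60.6% GC, and those of Apoc1 and Abcg1 54.9% and 52.7% GC. Lpcat3, Npc2 and Npc1 are 52.1%, 51.3% and 50.2% GC. Of the genes that did the reverse, Nr1h3 is 57.6% GC and Abca1 is 47.5% GC, the lowest of the members. The part of GC content in these directions was not tested. With GC content and length offsets, 2 of the 9 members other than Abcg1 passed with edgeR, both lower in cKO: Abca1 (log2 fold change −0.47, adjusted p = 0.0427) and Mylip (−0.33, adjusted p = 0.0392). The same 2 passed with Xist as a covariate, where Abca1 had −0.60 (adjusted p = 0.0186) and Mylip −0.36 (adjusted p = 0.0438). Over all genes, 120 were lower and 479 higher with the offsets, and 311 lower and 745 higher with the covariate, against 5 lower and 38 higher without either.

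**Figure D3:**
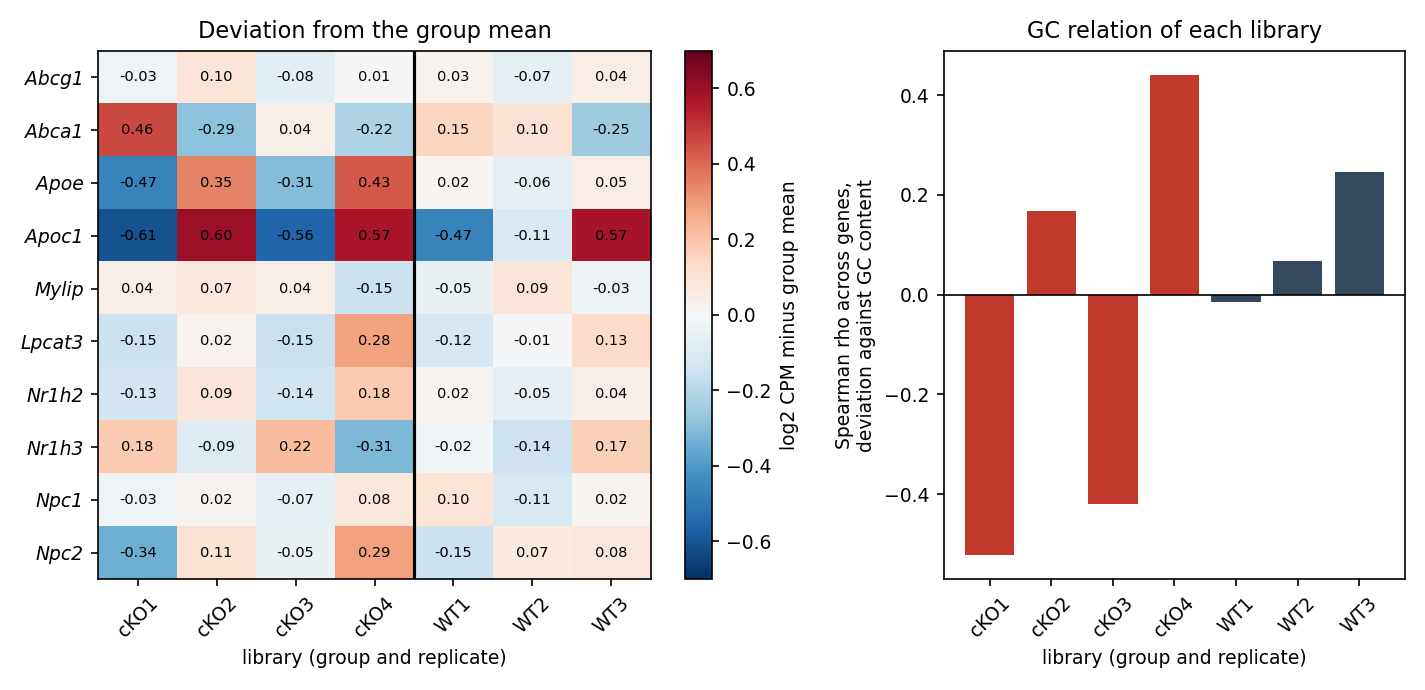
Left, log2 CPM of each gene minus its group mean in every library, with cKO left of the line and WT right. Right, the Spearman correlation across genes of a library's deviations with GC content, which is lowest in cKO replicate 1 (−0.52) and highest in cKO replicate 4 (0.44).

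Genes whose deviations from the group means were most like those of Abcg1 over the 7 libraries, among 8315 genes compared, were Eif3c (Pearson r = 0.99), a subunit of a translation initiation factor, Podxl2 (0.98), Cpe (0.98), Cpsf3 (0.98) and the transporter gene Abcc4 (0.97). The most opposite were Samd8 (r = −0.999), which encodes a sphingomyelin synthase-related protein, Fbxl14 (−0.99) and Cstf3 (−0.98). These values rest on 7 libraries that share their depth and composition effects and are a description. Of the members, Nr1h2 came closest, with r = 0.70 and rank 383 in likeness. Abca1 had r = −0.61.

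Among genes of cholesterol traffic in the wider pathway, 3 sterol carriers did not pass with edgeR. Stard4, a sterol carrier, was at 2.79 ± 0.35 CPM in cKO mice against 1.37 ± 0.54 CPM in WT mice (1.01, adjusted p = 0.142; range over the alternatives 0.0354 to 0.41). Gramd1a, which moves sterol from the plasma membrane, was at 185 ± 22.8 CPM in cKO mice against 244 ± 40.1 CPM in WT mice (−0.40, adjusted p = 0.181; range 0.0224 to 0.407). Stard3, a late endosomal sterol carrier, was at 246 ± 32.7 CPM in cKO mice against 308 ± 4.05 CPM in WT mice (−0.33, adjusted p = 0.192; range 0.0482 to 0.431). The groups did not overlap for any of these 3. Over all genes 7.2% were lower and 8.86% higher without overlap. With DESeq2 Stard4 passed (adjusted p = 0.0354), as did 374 genes higher and 164 lower over all genes.

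Of 21 tested genes of sterol synthesis and the SREBP-2 system (median 0.03), 0 passed with edgeR or limma-voom and 1 with DESeq2 (Srebf2). DESeq2 passed 374 genes higher and 164 lower over all genes. In this list 2 had an unadjusted p under 0.05 (9.52%, against 16.5% of all genes tested). Srebf2 itself was at 67.7, 81.0, 68.1 and 83.7 CPM in the cKO libraries and 56.4, 51.7 and 48.9 CPM in the WT libraries. The groups did not overlap, and the difference missed the threshold (log2 fold change 0.52, SE 0.12, adjusted p = 0.0963; range over the alternatives 0.00371 to 0.364). Sqle, which makes the epoxide precursor of sterols, was at 4.47 ± 0.95 CPM in cKO mice against 3.09 ± 0.41 CPM in WT mice (0.54, adjusted p = 0.251). Sc5d, a sterol desaturase, was at 15.2 ± 1.67 CPM in cKO mice against 18.4 ± 1.76 CPM in WT mice (−0.27, adjusted p = 0.354). In this list 9 of 21 genes had a fold change below 0.

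Of 18 other LXR target genes 16 were tested: 0 passed with edgeR, DESeq2 or limma-voom, and 10 had a fold change below 0 (median −0.12). An unadjusted p under 0.05 was found for 2 (12.5%, against 16.5% of all genes tested). Scd2, a fatty acid desaturase, was at 160 ± 18.3 CPM in cKO mice against 196 ± 23.1 CPM in WT mice (−0.30, adjusted p = 0.245). Arl4c, a small GTPase linked to cholesterol transport, was at 292 ± 26.8 CPM in cKO mice against 350 ± 29.1 CPM in WT mice (−0.26, adjusted p = 0.267). Fasn, the fatty acid synthase that shares its upstream element with Abca1, was at 49.9 ± 9.41 CPM in cKO mice against 63.3 ± 14.7 CPM in WT mice (−0.34, adjusted p = 0.350), and the engulfment receptor gene Mertk at 563 ± 67.7 CPM in cKO mice against 651 ± 66.1 CPM in WT mice (−0.21, adjusted p = 0.424). Srebf1, named for the element shown above, was at 75.3 ± 9.71 CPM in cKO mice against 85.8 ± 0.87 CPM in WT mice (−0.19, adjusted p = 0.465).

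Of 16 tested receptor partners, coregulators and oxysterol enzymes (median 0.03), 0 passed with edgeR or limma-voom and 1 with DESeq2 (Cyp27a1). DESeq2 passed 374 genes higher and 164 lower over all genes. In this list 2 had an unadjusted p under 0.05 (12.5%, against 16.5% of all genes tested). Cyp27a1, which makes 27-hydroxycholesterol, was at 42.5, 40.9, 44.3 and 43.3 CPM in the cKO libraries and 60.8, 53.1 and 50.5 CPM in the WT libraries. It was lower in every cKO library and missed the threshold (log2 fold change −0.36, SE 0.11, adjusted p = 0.150; range over the alternatives 0.0246 to 0.404). Sult2b1, a sterol sulfotransferase, was near the floor at 0.54 ± 0.25 CPM in cKO mice against 0.20 ± 0.06 CPM in WT mice (adjusted p = 0.205), Hsd3b7, a sterol dehydrogenase, was at 48.5 ± 6.80 CPM in cKO mice against 55.9 ± 1.63 CPM in WT mice (adjusted p = 0.437), and the coactivator gene Ncoa2 at 63.8 ± 8.13 CPM in cKO mice against 56.0 ± 12.1 CPM in WT mice (adjusted p = 0.594). Among 16 other ABC transporter genes of subfamilies A and G 8 were tested, and 0 passed with edgeR, DESeq2 or limma-voom and 0 had an unadjusted p under 0.05 (median −0.06). Those with the smallest p were Abca13 (log2 fold change −0.30, adjusted p = 0.571), Abca3 (−0.12, adjusted p = 0.610), Abcg3 (0.26, adjusted p = 0.615) and Abca6 (−0.47, adjusted p = 0.623).

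**Figure D4:**
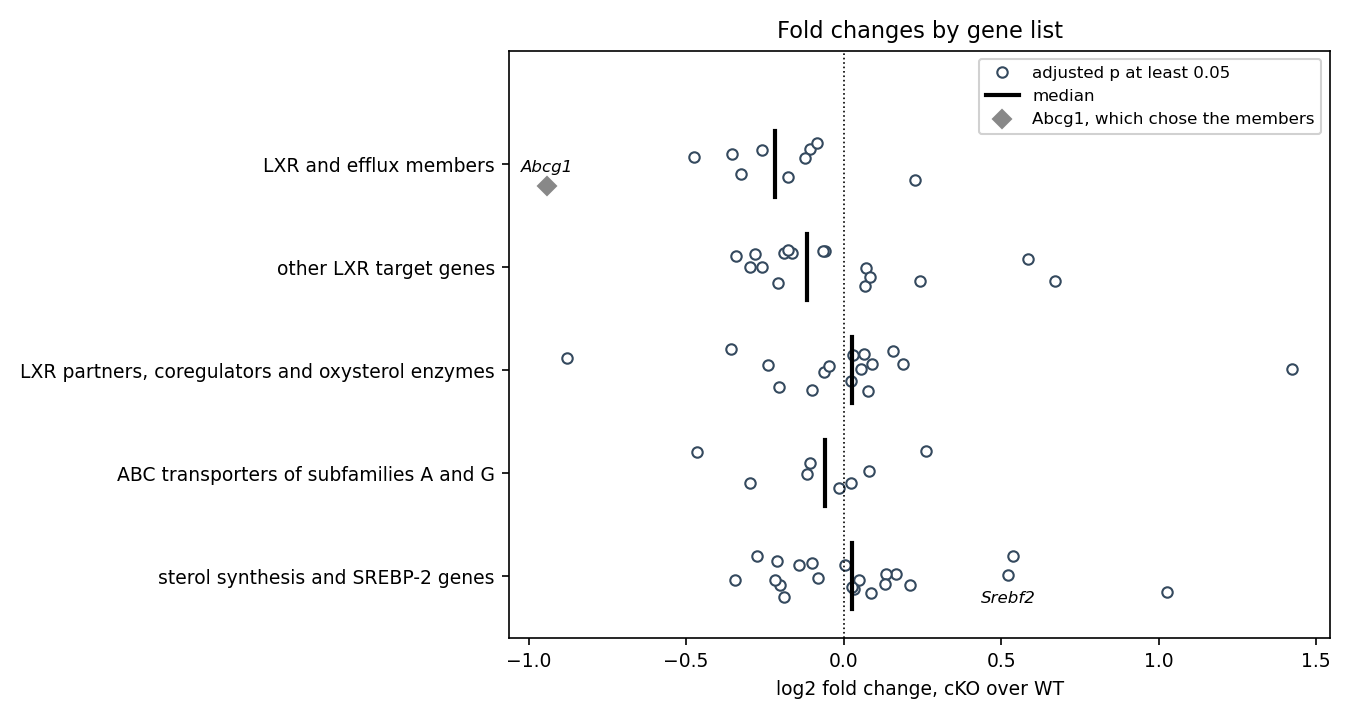
Log2 fold changes, cKO over WT, of the members and of 4 wider lists (points), with each list's median (bars); open points had an adjusted p of at least 0.05 and the grey diamond is Abcg1, which chose the members. The list medians lie between −0.22 and 0.03, and Srebf2 is at 0.52.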

How the data were processed

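The authors deposited raw counts of reads per gene symbol in 1 table with a column for each library. Per the submitters' processing notes the tools include DRAGEN and the build GRCm39; annotation and counting rule were not stated in the sources used here. edgeR 4.0.16 (R 4.3.3) was used with filterByExpr (least count 10, least total 15), which left 11991 of 23420 genes, TMM scaling, and the robust quasi-likelihood F test of cKO against WT without covariates. Benjamini-Hochberg adjustment ran over all tested genes (threshold 0.05). The SE is the log2 fold change divided by the square root of F. Log2 CPM used a prior count of 2. Transcript lengths and GC content came from GENCODE M21 (94.2% of genes tested). The fit was tested on simulated counts.

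The members and lists were chosen with earlier results of these data known, so they are no independent support. Named genes are the members, Srgap2, Tmem119, Esr1, Xist and Cx3cr1, up to 4 genes of each list that passed or had the smallest p, and the 5 most like and 3 least like Abcg1 among genes whose mean log2 CPM reached 3. Srebf1 was added after its values were seen. Some genes of the wider lists that this rule names are not reported here, nor is the count of genes passing in the list of cholesterol uptake, storage and traffic. Alternatives were RLE and upper-quartile factors, DESeq2 1.42.0, limma-voom (limma 3.58.1), edgeR without its robust option, filtering by 1 CPM in 3 libraries or not at all, omission of each library, a block by replicate number or by run of mouse numbers, Xist as a covariate, and GC content and length offsets (loess, span 0.3). Libraries with Xist alone, and an interaction of genotype with Xist presence, were added after seeing the data.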

Additional observations from a re-analysis of the deposited data

Results flagged for a closer look

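Apoe differed between cKO and WT in opposite directions in libraries with and without Xist. With Xist it averaged 2047 CPM in cKO (2 libraries) and 1826 CPM in WT (2 libraries), and each cKO library was above each WT library. Without Xist it averaged 1198 CPM in cKO (2 libraries) and 1854 CPM in WT (1 library), and both cKO libraries were below the WT library. The difference between these log2 fold changes was 0.79 (SE 0.18) in an edgeR interaction fit over all genes, with an unadjusted p of 0.000909 and an adjusted p of 0.273, so it did not pass. In that fit, which was added after seeing the data, 7 of 11991 genes passed and 1053 had an unadjusted p under 0.05. The cKO libraries with Xist also had the higher rank correlations with GC content (0.17 and 0.44, against −0.52 and −0.42). Xist presence and the GC relation cannot be told apart in cKO.

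Mylip in cKO had one library apart from the others: replicate 4 at 323 CPM, with the other 3 at 369 to 376 CPM. Its gap was 0.86 of the group's range, above Dixon's critical value for a group of 4. The 10 members were all examined in this way, and chance marks about 1 in 20 groups.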

How the results depend on the processing

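The direction was the same under all 19 alternatives for Abcg1, Abca1, Mylip, Lpcat3, Npc1 and Npc2. Nr1h3 also kept its direction. Apoc1, Nr1h2 and Apoe did not. Apoc1 was above 0 with the Xist covariate (0.18), in libraries with Xist only (0.17) and without cKO replicate 1 (0.077), cKO replicate 3 (0.075) or WT replicate 3 (0.32); over the omissions it ran from −0.35 to 0.32, and it fell below the filter without cKO replicate 2 or 4 and with the filter of 1 CPM. In libraries with Xist only, Nr1h2 was at 0.017, Apoe at 0.15, Fasn at 0.0036 and Abcg3 at −0.26. Members passing on the lower side, counting Abcg1, which chose them and is no result, numbered 1, but 2 with DESeq2, 3 with the Xist covariate, 3 with GC content and length offsets, 3 in libraries with Xist only and 1 to 2 when a library was left out. Besides Abcg1 these were Mylip with DESeq2, Abca1 without cKO replicate 1, and Mylip and Abca1 where 3 passed. The members' median was −0.33 with the replicate block, −0.095 in libraries with Xist only, and −0.33 to −0.14 when a library was left out.

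Over all genes, 38 were higher and 5 lower. These counts were 374 and 164 with DESeq2, 72 and 17 without a filter, 173 and 115 with the replicate block, 137 and 33 with a block for each run of mouse numbers, 745 and 311 with the Xist covariate, 479 and 120 with GC content and length offsets, and 521 and 277 in libraries with Xist only. There were 10 lower with upper-quartile factors and 8 lower with the filter of 1 CPM. Leaving out one library gave 2 to 111 higher and 2 to 31 lower. The cause was not tested. Deviations of libraries with the same replicate number correlated at 0.39, 0.07 and −0.17 across genes. The value for replicate 1 was the highest of any cKO and WT pair. Replicates 2 and 4 of cKO correlated best with WT replicate 3 (0.15 and 0.38), and cKO replicate 3 with WT replicate 1 (0.15). These values do not settle whether the replicate numbers pair the libraries. With the replicate block none of the 9 members other than Abcg1 passed. In that fit cKO replicate 4 has no WT library of the same number, so it adds nothing to the genotype fold changes. With 4 and 3 libraries, a p that misses the threshold does not show that levels were equal.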
